A study of Mus musculus with 5 samples.

Results

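MHC class I presentation and the immunoproteasome are described here through 10 genes, chosen by symbol and matched to Entrez Gene identifiers, of the 17058 genes with a count in the deposited files. They encode the class I heavy chains (*H2-K1* and *H2-D1*), their light chain (*B2m*), the peptide transporter and its docking protein (*Tap1*, *Tap2*, and *Tapbp*), the transcriptional activator of these genes (*Nlrc5*), and the inducible proteasome subunits (*Psmb8*, *Psmb9*, and *Psmb10*). Their RNA was measured in bone marrow–derived macrophages (BMDMs) of Balb/c mice that had shared a culture with 4T1 cells, a mouse mammary carcinoma line, for 48 hours. The 2 WT libraries came from cocultures with unedited 4T1 cells, and the 3 *Adam17*-/- libraries from cocultures with 4T1 cells in which *Adam17*, the gene of a protease that sheds membrane proteins, had been knocked out. A porous membrane held both cell types apart, and *Adam17* was not edited in the macrophages. All 3 *Adam17*-/- libraries carry 1 knock-out designation, which means that losing *Adam17* and anything else that sets that line apart cannot be told apart. The comparison asks how the loss of *Adam17* in the cancer cells bears on the macrophages next to them.

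Class I molecules carry short peptides of proteins made inside a cell to its surface, where CD8+ T cells inspect them. The peptides are cut by the proteasome, pumped into the endoplasmic reticulum by the transporter TAP, and fitted onto a heavy chain and B2M in a loading complex held together by tapasin. Interferon-gamma raises most genes of this pathway in macrophages, among them 3 catalytic subunits that replace their constitutive counterparts in newly made proteasomes, and NLRC5, which acts at the promoters of class I genes together with RFX, CREB/ATF, and NF-Y factors.

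Promoter sequence of the class I chains is shown because these genes share the elements through which NF-κB, IRF, CREB/ATF, and NF-Y factors are known to act. RefSeq windows of 250 bases before to 50 bases after a transcript start on GRCm38.p6 were held for 8 of the 10 genes, in 9 windows. Both windows of *H2-K1* are set on starts inside the gene's annotated span, so that its stretch lies within that span, and the sequence is that of the reference strain C57BL/6J, not of Balb/c. Each stretch reads 5′ to 3′ along the gene, and capitals mark, in this order, the κB motif (GGG, 2 bases of any kind, TT, 1 base of any kind, CC), GAANNGAAA (an IRF type motif), TGACG (a CREB/ATF half-site), and CCAAT (the NF-Y box), each searched on both strands. The stretch of *H2-K1* lies at chr17:34000354-34000463 on the minus strand, that of *H2-D1* at chr17:35262918-35263027 on the plus strand, and that of *B2m* at chr2:122147556-122147643 on the plus strand.
H2-K1: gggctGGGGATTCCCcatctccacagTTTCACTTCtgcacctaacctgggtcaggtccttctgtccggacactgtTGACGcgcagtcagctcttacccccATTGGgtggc
H2-D1: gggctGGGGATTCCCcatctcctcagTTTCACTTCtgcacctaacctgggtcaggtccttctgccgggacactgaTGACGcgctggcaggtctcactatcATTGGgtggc
B2m: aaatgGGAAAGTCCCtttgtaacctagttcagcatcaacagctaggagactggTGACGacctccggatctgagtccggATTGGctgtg

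The heavy chain stretches had the same base at 99 of 110 positions. In all 3 genes the TGACG and the inverted CCAAT box began 25 bases apart, a spacing looked for after the matches had been seen. It was found in 31 of 32544 promoter windows of the genome (0.0953%). These include windows of the 3 genes themselves and of *H2-M3*, another class I heavy chain gene, named after this search. The κB motif and TGACG began 70 bases apart in both heavy chain genes and 48 in *B2m*. No GAANNGAAA was matched in *B2m*. Its window does read gaaactgaaa just before the κB motif, a wider spacing that the searched pattern does not cover. Over all windows, the κB motif was found in 4.78%, GAANNGAAA in 7.57%, TGACG in 20.9%, and CCAAT in 37.4%. The windows of *Psmb9* and *Tap1* share 275 bases, since these genes lie head to head with 225 bases between them, and they hold 1 TGACG and 1 CCAAT in common. *Tapbp* held CCAAT only, and in the windows of *Psmb8* and *Psmb10* none of the 4 motifs was matched, which says only that these letters are not in those windows. A match is a description of the letters and not of a bound site.

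Of the 10 genes, 7 lie on chromosome 17 (GRCm38). *Tapbp* (Entrez Gene 21356) lies at 33919478 to 33929290, *H2-K1* (14972) at 33996012 to 34000619, and *H2-D1* (14964) at 35263094 to 35267497. *Psmb9* (16912, 34182030 to 34187330), *Tap1* (21354, 34187556 to 34197225), *Psmb8* (16913, 34198195 to 34201454), and *Tap2* (21355, 34204479 to 34216321) adjoin each other within 34292 bases. *B2m* (12010) lies on chromosome 2 at 122147687 to 122153082, and *Nlrc5* (434341, 94434335 to 94527272) and *Psmb10* (19171, 105935728 to 105938392) lie on chromosome 8.

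The libraries held 14658694 to 20788373 counts, and a count of 3, taken as the floor, corresponded to 0.157 to 0.197 CPM (counts scaled to the TMM-normalized library total). All 10 genes were far above this floor and passed the filter on low counts, as did 12576 genes in all. The counts of any 2 libraries differed by more than sampling noise, most within a group between the WT libraries, with a chi-square per degree of freedom of 25.7 against 5.22 to 6.32 between the *Adam17*-/- libraries. The labels do not say whether the replicates were separate cultures or animals, so the p-values measure the spread between these libraries, which may be technical. *H2-Ea*, a class II gene that is silent in C57BL/6 mice and active in Balb/c and was used as a check of the strain, had 2331 to 3603 counts per library.

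All 8 macrophage markers were tested, and their summed level was 27659 to 28416 CPM in the WT libraries and 17945 to 19906 CPM in the *Adam17*-/- libraries. By edgeR, 6 of these 8 genes were lower and 0 higher (0 at an unadjusted p of 0.05 and 0 by DESeq2). The 12 granulocyte markers summed to 376 to 463 CPM and 1271 to 1452 CPM, with 10 higher and 0 lower (0 at an unadjusted p of 0.05 and 0 by DESeq2). Dendritic cell markers summed to 13.0 to 20.3 CPM against 24.8 to 32.0 CPM, with 2 of 6 tested genes higher. The sums of fibroblast markers overlapped (34.7 to 40.8 CPM against 40.1 to 120 CPM, the highest in *Adam17*-/- replicate 3), with 2 of 4 tested genes higher. Beside these marker counts stand 14.9% of all tested genes called higher and 16.8% called lower. T and NK cell markers stayed at 4.80 CPM or less in sum, B cell markers at 4.74 CPM or less, and epithelial markers at 13.8 CPM or less in every library. *Ifng*, the gene of interferon-gamma, and *Krt5*, both named after their values were seen, had a count of 0 in all 5 libraries. In whole cultures, fewer cells of a type and less RNA per cell cannot be told apart, and the part of these other cells in the values that follow was not tested.

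Measured per length, as the mean FPKM over the 5 libraries, the 10 genes ranged from among the most abundant transcripts to moderate ones. *B2m* had 2151 FPKM, rank 11 of 17058 genes, followed by *H2-D1* (1214, rank 25) and *H2-K1* (820, rank 38). *Tapbp* stood at 181 FPKM, *Psmb8* at 63.9, *Tap2* at 43.2, *Tap1* at 32.6, *Psmb10* at 31.8, *Psmb9* at 30.8, and *Nlrc5* at 21.1. From *B2m* down to *Tap1*, no gene overlapped its neighbor in this order in any library, the closest being *Tap2* (38.9 to 47.0 FPKM) and *Tap1* (26.7 to 37.3 FPKM). *Tap1*, *Psmb10* (30.6 to 33.6 FPKM), and *Psmb9* (25.0 to 36.5 FPKM) lay within each other's spread, and *Nlrc5* (15.5 to 27.1 FPKM) reached that of *Psmb9*. Levels of *H2-K1* and *H2-D1* carry a limit of their own, because their counts were not whole (reads were divided among similar class I transcripts) and the RefSeq transcripts are those of the b haplotype while Balb/c mice carry the d haplotype. Comparisons between groups within a gene use 1 reference throughout.

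Between the cocultures, the pathway did not move as 1 block. *Nlrc5* was higher in macrophages cocultured with *Adam17*-/- cells, *B2m* and *Tapbp* were lower, and the other 7 genes did not pass the test. Thus 3 of the 10 genes were called at an adjusted p of 0.05 or less (edgeR, quasi-likelihood test with Benjamini-Hochberg adjustment over all 12576 genes), beside 31.7% of all genes tested, a share like that of the background. The 1 gene called higher stands beside 14.9% of all genes, and the 2 called lower beside 16.8%. Past a 2-fold change, 0 of the 10 genes were called (0 at an unadjusted p of 0.05 and 0 by DESeq2), beside 4.22% of all genes. The median log2 fold change of the 10 genes was -0.15, with 4 above and 6 below 0, and that of all genes was 0.01. Groups did not overlap for 5 of the 10 genes, beside 58.1% of all genes. All *Adam17*-/- libraries lay above both WT libraries for 2 of these (28.4% of all genes) and below for 3 (29.7%).

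**Figure D1:**
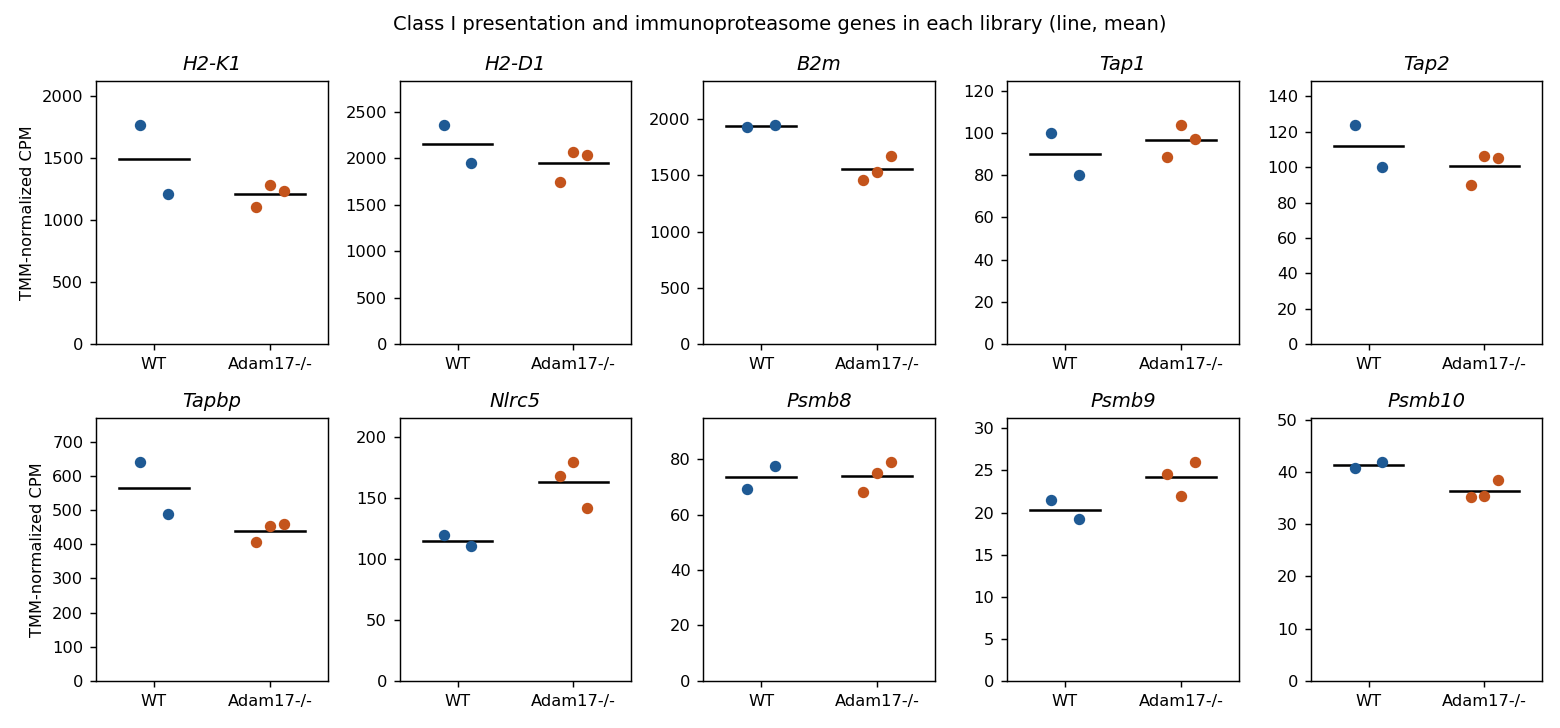
Each panel plots 1 gene as TMM-normalized CPM (y axis, from 0) in the 2 WT and 3 *Adam17*-/- libraries, with points for libraries and a line for the group mean. *Nlrc5* and *Psmb9* lie above both WT libraries in every *Adam17*-/- library, *B2m*, *Tapbp*, and *Psmb10* below, and the other 5 genes overlap.

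*B2m*, the light chain that every classical class I molecule needs, had 1929 and 1948 CPM in the WT libraries and 1458, 1531, and 1668 CPM in the *Adam17*-/- libraries. All *Adam17*-/- values lay under both WT values, which were nearly equal. Group means were 1938 ± 13.2 (SD, n = 2) and 1553 ± 107 CPM (SD, n = 3). This is a log2 fold change of -0.32 (standard error 0.0902, 95% interval -0.52 to -0.12, adjusted p = 0.0244, edgeR). The decrease passed with DESeq2 (adjusted p = 0.00454) but not without *Adam17*-/- replicate 1 (adjusted p = 0.147) or replicate 2 (adjusted p = 0.102).

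The heavy chains differed more between the WT libraries than between the groups. *H2-K1* had 1766 and 1213 CPM in the WT libraries, and the *Adam17*-/- libraries, at 1107, 1286, and 1236 CPM, lay around the lower of these. The log2 fold change, -0.30 with a standard error of 0.144 (adjusted p = 0.139, edgeR), rested on WT replicate 1. Without that library it was -0.01, and without WT replicate 2 it was -0.55 with an adjusted p of 0.000701. *H2-D1* showed the same order of libraries, with 2360 and 1952 CPM against 1744, 2069, and 2033 CPM. The groups overlapped, and the log2 fold change was -0.15 (standard error 0.114, 95% interval -0.40 to 0.11, adjusted p = 0.351). It was -0.007 without WT replicate 1 and -0.28 without WT replicate 2. Within a library, *H2-K1* had 0.780 and 0.648 times the FPKM of *H2-D1* in the WT libraries and 0.662, 0.648, and 0.633 times in the *Adam17*-/- libraries (exact permutation test, two-sided, p = 0.3). The 3 chain genes together took 0.557% and 0.492% of all WT counts, against 0.452%, 0.507%, and 0.512% of the *Adam17*-/- counts. With means of 0.524% ± 0.0457 (SD, n = 2) and 0.490% ± 0.0333 (SD, n = 3), the share of the libraries taken by class I chains overlapped between the groups (exact permutation test, two-sided, p = 0.6, where 0.1 is the smallest p that 2 samples against 3 allow).

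Of the 3 genes of peptide loading, 1 was called, beside 31.7% of all genes. *Tapbp*, which encodes tapasin, the protein that ties class I molecules to the transporter, had 642 and 489 CPM in the WT libraries and 405, 452, and 458 CPM in the *Adam17*-/- libraries. All *Adam17*-/- values were lower, the nearest by little. With means of 566 ± 108 (SD, n = 2) and 439 ± 29.3 CPM (SD, n = 3), the log2 fold change was -0.37 (standard error 0.117, 95% interval -0.63 to -0.10, adjusted p = 0.0391, edgeR). The call held without WT replicate 2 (-0.55, adjusted p = 0.000310) and was lost without WT replicate 1 (-0.16, adjusted p = 0.169) or without any 1 of the *Adam17*-/- libraries (adjusted p = 0.0805 to 0.162). Both of its RefSeq transcripts were seen in near equal amounts, the isoform NM_001025313 making up 50.3% and 47.3% of its WT counts and 45.4%, 49.4%, and 47.4% of its *Adam17*-/- counts (exact permutation test, p = 0.5).

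*Tap1* and *Tap2* encode the subunits of the peptide transporter, and neither passed the test. *Tap1* had 100 and 80.2 CPM in the WT libraries and 88.8, 104, and 97.1 CPM in the *Adam17*-/- libraries. This is a difference of 0.10 on the log2 scale (95% interval -0.15 to 0.35, adjusted p = 0.529, edgeR). *Tap2* had 124 and 99.8 CPM against 90.0, 106, and 105 CPM, a log2 fold change of -0.15 (95% interval -0.41 to 0.10, adjusted p = 0.323). For both genes WT replicate 1 was the higher WT library and the groups overlapped, and without 1 WT library either gene could pass or turn sign. Without WT replicate 1, *Tap1* passed at 0.26 (adjusted p = 0.0440) and *Tap2* was at 0.00, and without WT replicate 2 *Tap2* passed at -0.30 (adjusted p = 0.0189) and *Tap1* was at -0.06. The ratio of the subunits, in which this shared difference cancels, did not overlap between the groups. It was not among the planned comparisons, and groups did not overlap for 58.1% of all genes. Other unplanned ratios, *H2-K1* or *H2-D1* over *B2m* and *Psme2* over *Psme1*, overlapped. *Tap1* had 0.679 and 0.675 times the FPKM of *Tap2* in the WT libraries and 0.829, 0.820, and 0.774 times in the *Adam17*-/- libraries. Mean ratios of 0.677 ± 0.00296 (SD, n = 2) and 0.808 ± 0.0294 (SD, n = 3) differed 1.19-fold, with an exact permutation p of 0.1 (two-sided), the smallest the design allows, so that the test cannot pass 0.05.

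*Nlrc5*, the class I transactivator, showed the largest change of the 10 genes under the main settings and the 1 increase that passed. It had 119 and 111 CPM in the WT libraries and 168, 180, and 141 CPM in the *Adam17*-/- libraries, all above both WT values. Means of 115 ± 5.89 (SD, n = 2) and 163 ± 19.6 CPM (SD, n = 3) differed 1.42-fold. The log2 fold change was 0.50 (standard error 0.109, 95% interval 0.26 to 0.75, adjusted p = 0.00833, edgeR). Under all 13 alternatives that gave a value for it, including each library left out in turn, *Nlrc5* stayed higher at 0.45 to 0.65 with an adjusted p of at most 0.0379. Its counts, 2049 to 3073 per library, were whole numbers.

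**Figure D2:**
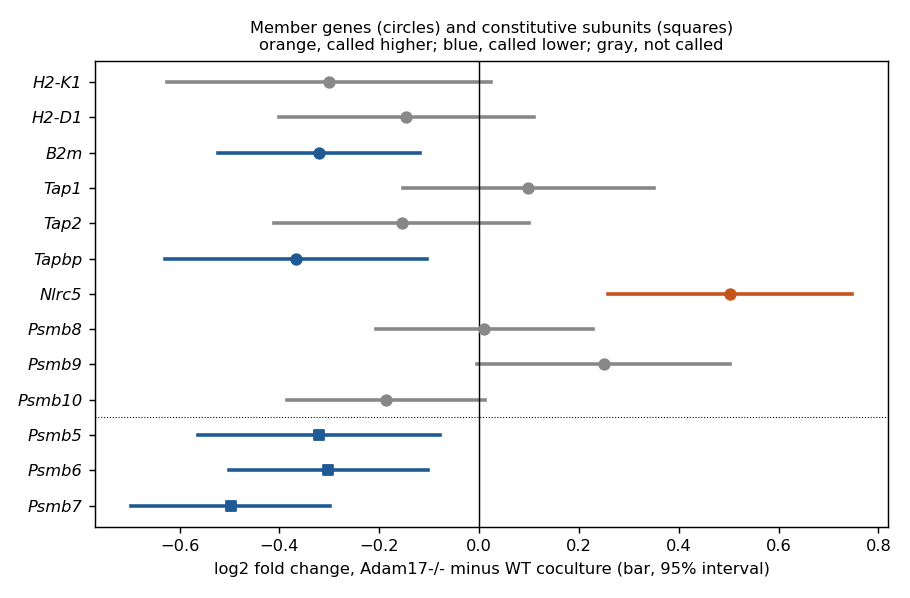
The x axis is the log2 fold change, *Adam17*-/- minus WT coculture, from edgeR; circles are the 10 genes, squares the constitutive catalytic subunits, and bars 95% intervals. *Nlrc5* lies to the right of 0, and *B2m*, *Tapbp*, and all 3 constitutive subunits to the left, while the intervals of the other genes cross 0.

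The immunoproteasome subunits were not called in either direction (0 of 3 at an unadjusted p of 0.05 and 0 by DESeq2). *Psmb8*, which encodes the chymotrypsin-like subunit β5i, had 69.3 and 77.7 CPM in the WT libraries and 68.0, 74.9, and 79.1 CPM in the *Adam17*-/- libraries. Means of 73.5 ± 5.92 and 74.0 ± 5.59 CPM gave a log2 fold change of 0.01, with an interval of -0.21 to 0.23 (adjusted p = 0.943, edgeR). *Psmb9* (β1i) had 21.5 and 19.2 CPM against 24.6, 21.9, and 26.1 CPM. Its *Adam17*-/- libraries all lay above the WT libraries, 1 of them by little, and at a log2 difference of 0.25 (standard error 0.113, adjusted p = 0.120) the gene did not pass. *Psmb10* (β2i) had 40.8 and 42.0 CPM against 35.2, 35.4, and 38.4 CPM, all lower, and did not pass at -0.19 (standard error 0.0887, adjusted p = 0.136). All 3 genes had whole counts.

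Their constitutive counterparts were called lower in 3 of 3 genes, beside 16.8% of all genes. *Psmb5* (β5) had 27.5 and 24.7 CPM in the WT libraries and 20.3, 19.6, and 22.7 CPM in the *Adam17*-/- libraries (log2 fold change -0.32, adjusted p = 0.0477, edgeR). *Psmb6* (β1) had 48.5 and 45.5 CPM against 36.4, 40.1, and 38.0 CPM (-0.30, adjusted p = 0.0291), and *Psmb7* (β2) had 34.1 and 35.4 CPM against 24.6, 24.3, and 25.0 CPM (-0.50, adjusted p = 0.00360). All *Adam17*-/- libraries lay below both WT libraries in these 3 genes, as in 29.7% of all genes and in *Psmb10*. With upper quartile factors, library size only, or either FPKM fit, and without any 1 *Adam17*-/- library, 1 of the 3 was called. *Psmb7* passed under all 13 alternatives, whereas *Psmb5* and *Psmb6* lost their calls in those fits and with the replicate number as a block. *Psmb5* also lost its call with DESeq2 and with at least 10 counts in every sample, and was at -0.24 without WT replicate 1.

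The ratio of inducible to constitutive subunits compares transcripts within a library, so that library scaling cancels. Summed FPKM of *Psmb8*, *Psmb9*, and *Psmb10* was 1.01 and 1.09 times that of *Psmb5*, *Psmb6*, and *Psmb7* in the WT libraries and 1.35, 1.34, and 1.42 times in the *Adam17*-/- libraries. The means, 1.05 ± 0.0626 (SD, n = 2) and 1.37 ± 0.0476 (SD, n = 3), differed 1.30-fold, and the groups did not overlap. An exact two-sided permutation test gave p = 0.1, which is the smallest it can give here. Each pair showed the same order. *Psmb8* over *Psmb5* was 1.75 and 2.19 against 2.33, 2.65, and 2.42 (exact permutation p = 0.1), *Psmb9* over *Psmb6* was 0.582 and 0.554 against 0.886, 0.718, and 0.899 (p = 0.2), and *Psmb10* over *Psmb7* was 0.895 and 0.888 against 1.07, 1.09, and 1.15 (p = 0.1). On the log2 scale the summed ratio differed by 0.38 in FPKM and 0.36 in counts, and by 0.32 to 0.44 with 1 library left out. Markers of granulocytes, cells that were not profiled on their own here, were higher in the same libraries, and their part in the ratio was not tested.

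**Figure D3:**
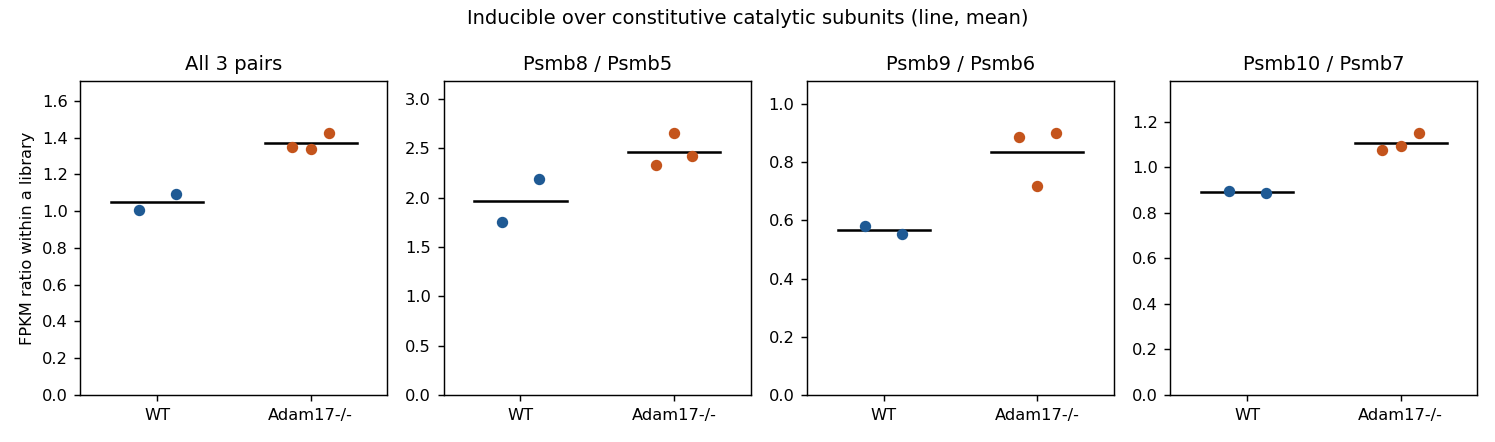
FPKM ratio of inducible to constitutive catalytic subunits (y axis, from 0) in each WT and *Adam17*-/- library, for the sum of all 3 pairs and for each pair, with a line at the group mean. In all 4 panels the *Adam17*-/- libraries lie above both WT libraries, from 1.34 to 1.42 against 1.01 to 1.09 in the first.

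The rest of the proteasome was lower or did not pass. In the shared 20S core and its assembly factors, 3 of 16 genes were lower and 0 higher (edgeR; 0 at an unadjusted p of 0.05 and 0 by DESeq2), with a median log2 fold change of -0.10. This share is near the 16.8% of all genes called lower. *Psmb2* (-0.49), *Psmb3* (-0.31), and *Psmb4* (-0.30), which encode noncatalytic β-subunits found in both kinds of proteasome, were the 3 genes, and *Psma1* did not pass (-0.09, adjusted p = 0.530). *Psmb2* passed under all 13 alternatives, while *Psmb3* and *Psmb4* lost their calls without any 1 *Adam17*-/- library. They also lost them with upper quartile factors, library size only, either FPKM fit, and the replicate number as a block. In all these fits 1 gene of the list was lower. *Psmb4* lost its call with DESeq2 as well (adjusted p = 0.0699), which called 2 genes of the list lower. In the 19S regulatory particle, which unfolds ubiquitinated proteins, 10 of 18 genes were lower and 0 higher (0 at an unadjusted p of 0.05 and 0 by DESeq2), with a median of -0.30. Beside these 10 of 18 stand 16.8% of all genes called lower. The count was 7 with upper quartile factors and 4 with library size only, where 1077 of all 12576 genes were lower, and it was 2, 5, and 3 without *Adam17*-/- replicates 1, 2, and 3. *Psmd3* (-0.50), *Adrm1* (-0.48), *Psmd2* (-0.44), and *Psmc3* (-0.41) led this group, of which *Adrm1* and *Psmc3* lost their calls without *Adam17*-/- replicate 1 and *Psmc3* also without replicate 3. Of 4 activator genes, *Psme3* was lower (-0.28, adjusted p = 0.0245), but not without any 1 *Adam17*-/- library or under the other scalings, while *Psme1* and *Psme2*, the interferon-inducible PA28 subunits, did not pass (-0.15 and -0.19, adjusted p = 0.244 and 0.239).

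The endoplasmic reticulum proteins that fold class I chains and trim their peptides were mostly lower at the RNA level. Of 9 genes, 6 were lower and 0 higher (0 at an unadjusted p of 0.05 and 0 by DESeq2), with a median of -0.47, beside 16.8% of all genes called lower. With library size only 4 were lower. *Calr*, the gene of the chaperone calreticulin in the loading complex, had 891 and 753 CPM in the WT libraries and 393, 414, and 445 CPM in the *Adam17*-/- libraries, with a log2 fold change of -0.98. *Pdia3*, the oxidoreductase bound to tapasin, had 457 and 469 CPM against 306, 307, and 337 CPM (-0.55). *Hspa5* (-0.82) and *Uggt1* (-0.61), general factors of protein folding, fell as well, as did, among genes named after their values were seen, the peptide-trimming peptidase *Erap1* (-0.47) and the chaperone *Canx* (-0.31). *P4hb*, a disulfide isomerase, was at -0.01 (adjusted p = 0.933). *Calr*, *Pdia3*, *Hspa5*, and *Uggt1* passed under all 13 alternatives.

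Of 19 other class I heavy chains, nonclassical or class I–like, 14 were tested. By edgeR 3 were higher, beside 14.9% of all genes, and 0 were lower (2 at an unadjusted p of 0.05 and 0 by DESeq2), with a median log2 fold change of 0.05. With the replicate number as a block 1 was higher, *H2-T22*, and 0 were lower. DESeq2 called 2 higher, library size only 5, and without WT replicate 2 the test called 3 higher and 3 lower. *Mr1*, which presents vitamin metabolites to MAIT cells, had 33.1 and 38.3 CPM in the WT libraries and 50.2, 46.1, and 56.9 CPM in the *Adam17*-/- libraries (0.52, adjusted p = 0.00874, edgeR). *H2-T22*, a ligand of some γδ T cells, had 21.9 and 25.7 CPM against 31.5, 33.9, and 32.5 CPM (0.46, adjusted p = 0.0101). *H2-T10* was also called (1.09, adjusted p = 0.0470) but had only 0.703 to 3.02 CPM and lost the call with DESeq2 and without WT replicate 2 or any 1 *Adam17*-/- library. The most abundant of the list, *H2-Q4* (0.24, adjusted p = 0.108) and *H2-T23* (-0.14, adjusted p = 0.266), did not pass, though *H2-Q4* did with library size only (adjusted p = 0.0166), in both FPKM fits, and without WT replicate 1 (adjusted p = 0.0133). Counts of the tested *H2-Q* and *H2-T* genes, families of closely similar sequence, were not whole, while those of *Mr1* were.

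**Figure D4:**
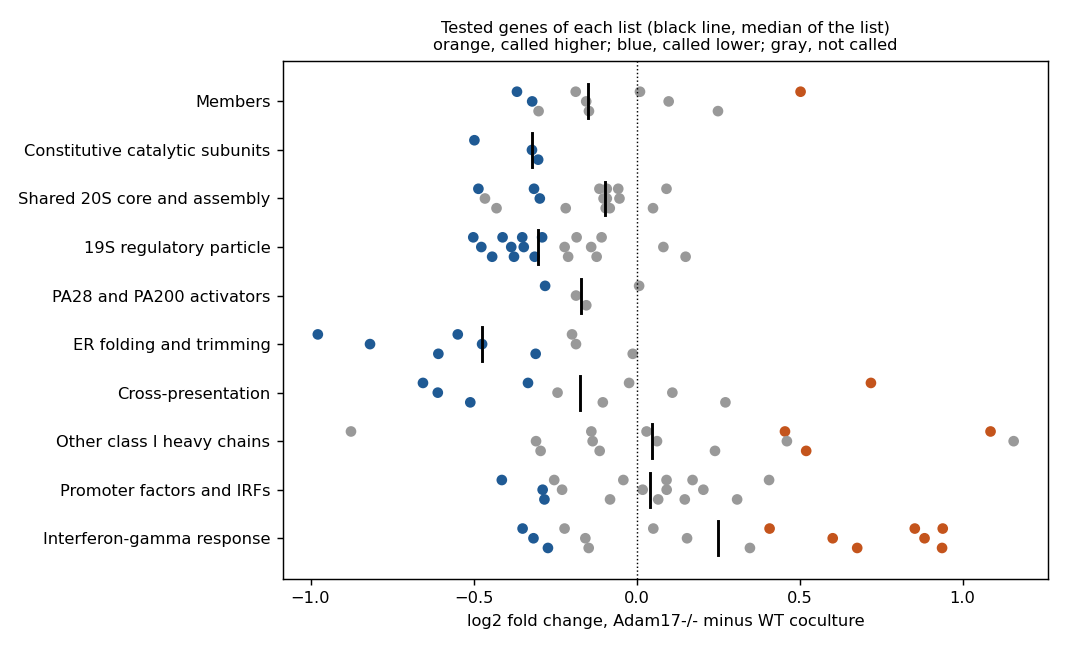
Points are the tested genes of each list by log2 fold change (x axis, *Adam17*-/- minus WT coculture, edgeR), orange where called higher, blue where called lower, and gray where not called, with a black line at the median of the list. Medians run from -0.47 for folding and trimming in the endoplasmic reticulum to 0.25 for the interferon-gamma response, and that of the 10 genes is -0.15.

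The factors that act at the class I promoters showed no common direction. Of 16 genes, 3 were lower and 0 higher (edgeR; 2 at an unadjusted p of 0.05 and 0 by DESeq2), with a median of 0.04. The share called lower is near the 16.8% of all genes, and with library size only 4 were higher and 0 lower. Without 1 library, 0 (*Adam17*-/- replicate 1 or 3), 1 (*Adam17*-/- replicate 2 or WT replicate 1), or 5 (WT replicate 2) were lower. *Rela* (-0.41), *Nfkb1* (-0.28), and *Nfyc* (-0.29), which encode subunits of NF-κB and NF-Y, were lower, though *Nfyc* lost its call with DESeq2, *Nfkb1* and *Nfyc* without any 1 library other than WT replicate 2, and *Rela* without *Adam17*-/- replicate 1 or 3. All 3 lost their calls with library size only, with either FPKM fit, and with the replicate number as a block. Upper quartile factors left 1 gene of the list lower and 2 higher. The partner of NLRC5, *Rfx5*, was at 0.09 (adjusted p = 0.487), *Irf1* at 0.17 (adjusted p = 0.130), and *Irf8* at -0.23 (adjusted p = 0.0532). *Irf8* passed with DESeq2 and without WT replicate 2.

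Genes of interferon-gamma signaling and response, listed together, were mixed. Of 16 tested genes 7 were higher and 3 lower, with a median of 0.25, beside 14.9% and 16.8% of all genes. With library size only 8 were higher and 0 lower. *Gbp5* (0.94), *Gbp4* (0.88), and *Iigp1* (0.85), GTPases of defense against intracellular microbes, were higher from low levels of 2.44 to 4.92 CPM in the WT libraries. *Cd274*, which encodes the checkpoint ligand PD-L1, had 241 and 234 CPM in the WT libraries and 465, 456, and 442 CPM in the *Adam17*-/- libraries (0.94, adjusted p = 0.000203). *Ciita*, the class II counterpart of *Nlrc5* and named here after its values were seen, had 26.3 and 22.6 CPM against 40.2, 37.8, and 39.2 CPM (0.68, adjusted p = 0.00162). *Gbp3* (0.60) and *Jak2* (0.41) completed the higher genes. The receptor gene *Ifngr1* was lower (-0.32, adjusted p = 0.0135), as were *Jak1* (-0.27) and *Irgm2* (-0.35), and *Ifngr2* did not pass (-0.16, adjusted p = 0.154). Without *Adam17*-/- replicate 1 or 2, 0 genes of the list were lower, and without *Adam17*-/- replicate 3 there was 1. With the replicate number as a block 0 were lower. *Cxcl9*, a chemokine that interferon-gamma induces strongly and named after its values were seen, had a count of 0 in every library.

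In cross-presentation, the route by which peptides of ingested proteins reach class I molecules, 4 of 10 genes were lower and 1 higher, with a median of -0.17, beside 16.8% and 14.9% of all genes. *Wdfy4* (-0.66), *Vcp* (-0.61), and *Sec61a1* (-0.51) were lower, all of them under all 13 alternatives. So was *Rac2* (-0.33), which lost its call without *Adam17*-/- replicate 1 or 2. It also lost it with library size only, either FPKM fit, and the replicate number as a block. *Rab27a*, a GTPase of vesicle transport, was higher (0.72), and *Cybb*, the oxidase subunit gp91phox, was at 0.11 (adjusted p = 0.352). Over the 9 lists, 11 of 106 tested genes were higher and 33 lower, with a median of -0.14, beside 14.9% and 16.8% of all genes. With library size only 18 were higher and 13 lower, and without *Adam17*-/- replicates 1, 2, and 3 the counts of lower genes were 11, 16, and 15.

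How many of the 10 genes were called, and in which direction, depended on how libraries were scaled. TMM factors lay at 0.920 and 0.963 in the WT group and between 1.04 and 1.05 in the *Adam17*-/- group. Without them, on library size only, the median change of all genes went from 0.01 to 0.16 on the log2 scale. The calls over all genes then changed from 1869 higher and 2114 lower to 3019 higher and 1077 lower. On that scale *Nlrc5* (0.65) and *Psmb9* (0.40, adjusted p = 0.0243) were higher and none of the 10 genes was lower, with *B2m* at -0.17 and *Tapbp* at -0.22. Upper quartile factors, which moved the median to 0.07, left *Nlrc5* as the 1 gene called, with an adjusted p of 0.0562 for *B2m* and 0.0726 for *Tapbp*.

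**Figure D5:**
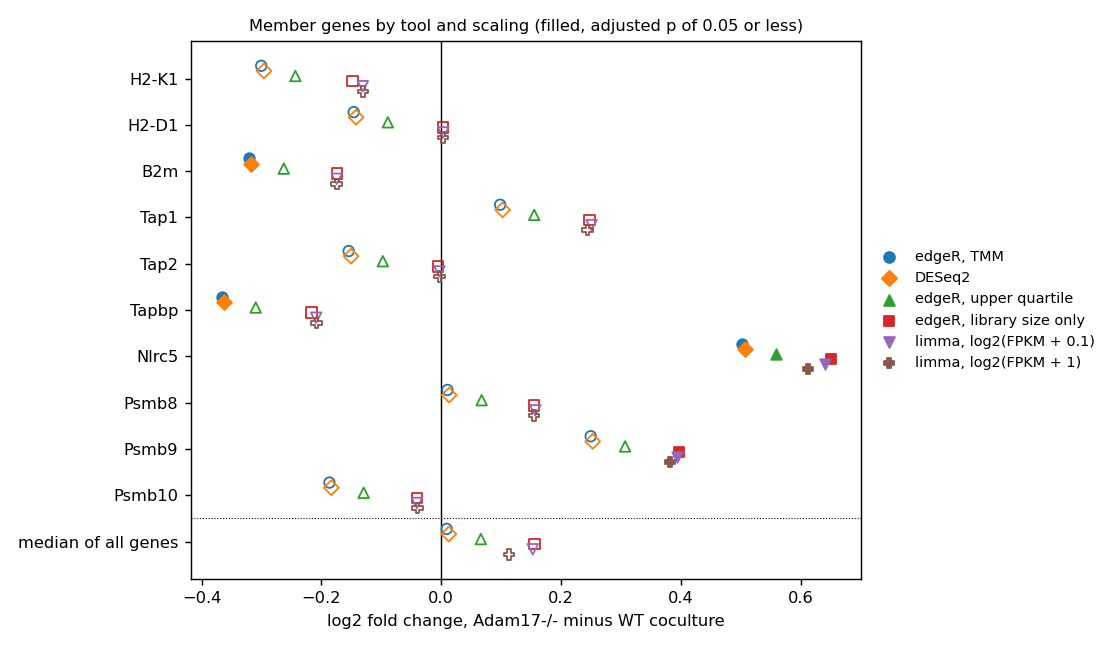
Log2 fold change (x axis, *Adam17*-/- minus WT coculture) of each gene and of the median of all genes under 6 tools or scalings; filled symbols have an adjusted p of 0.05 or less. *Nlrc5* is filled in all 6, *B2m* and *Tapbp* are filled with TMM factors and DESeq2, and *Psmb9* in the FPKM fits and with library size only.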

How the data were processed

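RNA-Seq of 5 BMDM samples was grouped by the sample labels (2 WT, 3 *Adam17*-/-). The authors sequenced poly-A RNA on a BGISEQ-500, aligned reads to GRCm38 with HISAT, and quantified transcripts with Bowtie2, and the submitters' processing notes also name RSEM. Tool versions are not given in the sources used here. The authors deposited, per transcript, an expected count, which is not normalized and divides a read among the transcripts it matches, and an FPKM value, which is scaled by transcript length and sequencing depth. Transcripts under an FPKM of 0.01 are not listed and were taken as 0. Whether counting used strand is not given, so reads of antisense and overlapping genes could not be told apart.

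Expected counts were summed per Entrez Gene identifier, rounded (by at most 0.5), and compared between groups by edgeR 4.0.16 under R 4.3.3 (TMM, filterByExpr, glmQLFit, glmQLFTest, no covariates), with Benjamini-Hochberg adjustment over 12576 genes, and calls needed an adjusted p of 0.05 or less. Symbols, coordinates, and promoter windows came from RefSeq GRCm38.p6, which matched 17015 of 17058 genes; the others held at most 0.208% of the counts of a library. Ratios within a library were compared by exact permutation tests, two-sided, over the 10 splits of 2 against 3 libraries. Scripts were tested on simulated data.

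The 10 genes and all gene lists were chosen with earlier results of these data known. Named were each of the 10 genes; of each pathway list, up to 4 called genes with the largest change and the 2 most abundant by FPKM; all constitutive catalytic subunits, *Psme1*, *Psme2*, *Irf1*, and *Rfx5*; other genes are marked as chosen after their values were seen, and *H2-Ea* was added as a check of the strain. *Gbp3*, *Jak2*, *Jak1*, and *Irgm2* were likewise added to complete their list. Alternatives were scaling by library size only or upper quartile factors, DESeq2 1.42.0, limma 3.58.1 with pseudocounts of 0.1 or 1 on log2 FPKM, no filter, at least 10 counts in every sample, an adjusted p of 0.01, the replicate number as a block, and each replicate left out. 1 gene that this rule names is not reported here. Plots used matplotlib 3.10.9.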

Additional observations from a re-analysis of the deposited data

How the results depend on the processing

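The libraries held at least 14658694 counts, and the number of libraries, 2 against 3, also limits the precision. With the settings of the report, 3 of the 10 genes were called. DESeq2, no filter, and at least 10 counts in every sample also gave 3, library size only and both FPKM fits gave 2, and upper quartile factors and an adjusted p of 0.01 gave 1. Leaving out 1 library gave 1 to 5, with 5 without WT replicate 2 and 1 without *Adam17*-/- replicate 1 or 2. Genes called higher numbered 2 with library size only and both FPKM fits, and 1 to 2 with 1 library left out. Genes called lower numbered 0 with upper quartile factors, library size only, both FPKM fits, and an adjusted p of 0.01, and 0 to 4 with 1 library left out. Past a 2-fold change 0 were called under every alternative. Over all genes, the 3983 calls became 1842 at an adjusted p of 0.01 and 2015 to 5400 with 1 library left out (2015 without *Adam17*-/- replicate 1, 2408 without replicate 2, 2445 without replicate 3). The 44 pathway calls became 19 and 20 to 57. The cause of these changes was not tested.

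WT and *Adam17*-/- libraries share only replicate numbers, and those of 1 number did not deviate together (correlations of -0.12 and -0.05). With the replicate number as a block, 1 of the 10 genes was called (*Nlrc5*) and 0 were lower, 2342 genes were called in all, and 21 of the pathway lists.

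Of 130 values of the 10 genes, 100 kept direction and side of the threshold, 16 lost a call, 6 gained one, and 8 turned sign. On the log2 scale, with library size only, log2(FPKM + 0.1), and log2(FPKM + 1), *H2-D1* was at 0.0028, 0.0033, and 0.0033, and *Psmb8* was at -0.040 with the block. With 1 library left out, *Tap1* ran from -0.055 to 0.26, *Tap2* from -0.30 to 0.0048, and *Psmb8* from -0.074 to 0.092. In the same order of 3 scalings, genes outside the 10 turned sign without a call: *H2-T23* at 0.0090, 0.0086, and 0.0085, *P4hb* at 0.14, 0.13, and 0.13, *Psma1* at 0.053, 0.056, and 0.055, and *Psmd8* at 0.040, 0.041, and 0.040. With upper quartile factors *P4hb* was at 0.046, and with at least 10 counts *P4hb* was at 0.0018. With 1 library left out, *P4hb* ran from -0.044 to 0.051, and *Psma1* from -0.20 to 0.023. The class I share differed by -0.10, and by -0.18 to -0.01 with 1 library left out.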
